A study of Mus musculus with 42 samples.

Results

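The Runx family and its core binding partner were followed across myogenic precursors made from mouse embryonic stem cells and satellite cells taken from muscle. The 4 members, Runx1, Runx2, Runx3 and Cbfb, were taken by symbol from the 24466 genes listed in the RNA-seq count tables. No measured value entered this rule, but earlier results of these data were known when it was chosen. Runx1, Runx2 and Runx3 are transcription factors that bind DNA through the runt domain, and Cbfb encodes the core binding factor β subunit, which does not itself contact DNA and strengthens the binding of each Runx protein. Runx1 is known for blood stem cell formation and is also active in denervated muscle and in muscle precursors, Runx2 for bone formation, and Runx3 for T cells and proprioceptive sensory neurons. Each Runx gene is read from a distal promoter, P1, and a proximal promoter, P2, which give proteins with different N-termini.

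iPax7 cells are an embryonic stem cell line in which doxycycline (Dox) induces a Pax7 transgene. Precursors were purified from embryoid bodies as PDGFαR+ Flk-1- cells and grown in serum medium with FGF and 0.75 µg/ml Dox (+Dox, 3 RNA-seq replicates). For -Dox, the same cells were washed and kept for 3 days in that medium with FGF and no Dox (2 replicates). Satellite cells were freshly sorted from muscle of Pax7-ZsGreen reporter mice (3 replicates), and the age of these mice was not given in the sources used here. Every iPax7 group carries the transgene and derives from 1 line. Accessible chromatin (ATAC-seq) was listed for iPax7 cells with Dox and 12 h, 24 h and 3 days after its removal, for myotubes made from them in 2% horse serum, for satellite cells, and for the C2C12 myoblast line as plain myoblasts, myotubes, and lines expressing Flag-tagged Pax7 or the Flag tag alone. Histone mark peaks were listed for +Dox and -Dox iPax7 cells and for both C2C12 Flag lines.

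Counts on genes ran from 39010958 to 54674619 per replicate. Reads with several alignments, left out of the gene counts, were 7.11 to 7.6% in iPax7 replicates and 23.58 to 30.68% in satellite cells. Summed normalized counts of 6 differentiated muscle markers were 7179 to 8546 in +Dox and 1692000 to 1735000 in -Dox, and all 6 rose after Dox withdrawal. Summed counts of 6 myogenic precursor markers were 146800 to 217500 in +Dox, 23170 to 23930 in -Dox and 239100 to 266200 in satellite cells. Myf5 alone held 111000 to 190100 in +Dox. After withdrawal 3 of the 6 were called lower and 1, Itga7, higher. Itga7 averaged 370.1 in +Dox, 3649 in -Dox and 26480 in satellite cells. Myod1 averaged 200.2 in +Dox, 139.6 in -Dox and 22960 in satellite cells. Satellite cells also held 8 blood markers at a summed 11610 to 30770, against 77.75 to 241.3 in +Dox and 274.8 to 612.9 in -Dox. The blood markers Ptprc, Tyrobp, Csf1r and Cd52 were at 0 in every +Dox replicate, and Ptprc, Tyrobp and Cd52 in every -Dox replicate. The summed level of 5 endothelial markers was 13680 to 19990 in satellite cells and at most 166.6 in any iPax7 replicate. Satellite cells were also higher in the summed level of 5 fibroblast-like markers (46430 to 69720, against at most 12590). The same held for 4 mural markers (10920 to 21720, against at most 217.7) and 3 Schwann cell markers (1568 to 2832, against at most 91.9). The fibroblast-like marker Ly6a did not follow its sum. It had 2647, 2899 and 9643 normalized counts in +Dox, and 851.7, 2291 and 4725 in satellite cells. Replicates of the 3 groups were deposited as separate files of 1 sample each, and nothing in the labels says that they came from separate cultures or animals, so p-values measure the spread between these files.

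The members lie on 4 chromosomes (GENCODE M1 on NCBIM37, which is mm9). Runx1 runs from 92601712 to 92826311 on the minus strand of chromosome 16, with its annotated P1 starts at 92826256 to 92826311 and its P2 starts at 92695895 to 92697573. Runx2 runs from 44632936 to 44951746 on the minus strand of chromosome 17, with P1 starts at 44951175 to 44951746 and P2 starts at 44871642 to 44873597. Runx3 is shorter, from 134676567 to 134733905 on the plus strand of chromosome 4, with P1 at 134676567 and P2 starts at 134708411 to 134710351. Cbfb, from 107694574 to 107741886 on the plus strand of chromosome 8, has a single group of starts. Genes on the opposite strand overlap Runx1 (Gm16801), Runx2 (Supt3h, Gm10497, Gm16317 and 9530072K05Rik) and Runx3 (Gm16224), and whether the counting used strand was not given in the sources used here. Runx2 has 2 annotated gene entries, whose exons were joined for its length.

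The distal promoters of all 3 Runx genes hold a pair of RUNX motifs in tandem. These are shown because they are the letters that the family's own proteins bind, placed at the family's own P1 starts. In the RefSeq promoter windows (GRCm38.p6, 250 bases before to 50 after a start), each P1 window held a pair of ACCACA, the reverse complement of the RUNX core TGTGGT, with starts 8 bases apart. The Runx2 window held 1 further core, and the windows matched NCBIM37 letter for letter. In the 30-base stretches, read on the strand of the gene, the capitals mark both cores.
Runx1 P1, chr16:92826270-92826299, minus strand: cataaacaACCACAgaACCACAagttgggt
Runx2 P1, chr17:44951532-44951561, minus strand: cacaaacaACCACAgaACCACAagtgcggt
Runx3 P1, chr4:134676418-134676447, plus strand: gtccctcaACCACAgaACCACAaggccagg
The longest run common to the 3 windows was 18 bases, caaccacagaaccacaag. From the RefSeq start, the first core began at position 29 in Runx1, 24 in Runx2 and -134 in Runx3. A tandem of this kind (ACCACA, any 2 bases, ACCACA), searched on both strands, was in 7 of 32841 promoter windows (0.0213%). Of those 7, 3 belonged to Runx1, Runx2 and Runx3, and 1 to Gm16225, a transcript annotated beside Runx3 on the other strand. The single core TGTGGT was in 16.8% of promoter windows, on either strand, and in none of the Runx1 P2, Runx3 P2 and Cbfb windows. A match describes letters only.

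Of the 2455 Pax7-bound sites listed for +Dox cells, 1 lay in Runx1 and 3 in Runx2, all in introns, and none within 50 kb of Runx3 or Cbfb. By construction of the list, each site was bound in +Dox cells and not in any -Dox replicate. The Runx1 site (92709791 to 92710291) lies between P1 and P2, 12467 bases from the nearest P2 start. In Runx2, site 1 (44913702 to 44914194) and site 2 (44907685 to 44908140) lie between P1 and P2, and site 3 (44846813 to 44847262) lies 24605 bases from the nearest P2 start. Site 1 of Runx2 spans the annotated start of Supt3h at 44914101 and site 3 spans that of 9530072K05Rik at 44847171, both on the opposite strand. The central 300 bases of the Runx1 site and of Runx2 site 2 follow on the plus strand, because the first was open in iPax7 precursors alone and the second had no H3K27Ac peak after withdrawal, as described below. The capitals mark TAAT on either strand, the core that homeodomains such as that of Pax7 contact.
Runx1 site 1, chr16:92709891-92710190: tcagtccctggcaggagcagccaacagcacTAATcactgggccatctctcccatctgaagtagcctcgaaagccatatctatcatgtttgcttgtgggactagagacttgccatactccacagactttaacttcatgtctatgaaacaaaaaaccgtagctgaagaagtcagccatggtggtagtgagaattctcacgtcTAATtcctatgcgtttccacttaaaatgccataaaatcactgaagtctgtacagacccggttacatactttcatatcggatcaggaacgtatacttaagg
Runx2 site 2, chr17:44907763-44908062: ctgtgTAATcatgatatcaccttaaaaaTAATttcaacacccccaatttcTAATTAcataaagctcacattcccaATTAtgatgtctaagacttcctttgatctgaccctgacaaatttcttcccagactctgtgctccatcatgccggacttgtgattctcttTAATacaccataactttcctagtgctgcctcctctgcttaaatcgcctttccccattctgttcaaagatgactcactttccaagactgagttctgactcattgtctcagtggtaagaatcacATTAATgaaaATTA
Runx2 site 2 held 9 TAAT matches, counting overlaps, against a median of 2 over all 2455 Pax7 windows of this length, of which 1.22% held as many. It also held 2 AP-1 motifs (TGANTCA, both strands), a motif present in 14.1% of Pax7 windows. The Runx1 site and Runx2 site 3 held 2 TAAT matches each and Runx2 site 1 held 1, so these were near the median. GC content was 38.3% in Runx2 site 2, 44% in the Runx1 site, 48% in Runx2 site 3 and 65.3% in Runx2 site 1. None of the 4 windows held the inverted pairs of TAAT and ATTA with 2 or 3 bases between them, which were in 1.02% and 1.71% of Pax7 windows.

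Runx1 was lowest in +Dox cells, higher 3 days after Dox withdrawal and highest in satellite cells. Its normalized counts, scaled to the geometric mean of the effective library sizes, were 1862, 1717 and 2623 in +Dox, 8739 and 7664 in -Dox, and 11080, 20900 and 27170 in satellite cells. The 3 groups did not overlap, and satellite cells spread 2.45-fold among themselves. The share of all tested genes whose groups separate was not counted, here or for the genes below. After withdrawal Runx1 rose 3.97-fold, by 1.99 on the log2 scale (SE 0.37, adjusted p = 0.0108 by the edgeR quasi-likelihood test, with p-values adjusted after Benjamini and Hochberg). In that comparison 4.66% of the 14836 genes tested rose and 3.04% fell. This call was lost, with log2 fold changes of 1.88 to 2.09, when +Dox replicate 2 (adjusted p = 0.0538 by edgeR), -Dox replicate 1 (0.078) or -Dox replicate 2 (0.0524) was left out. The rise ran beside that of all 6 differentiated muscle markers, and its relation to them was not tested. In bulk samples fewer cells of a type and less RNA per cell cannot be told apart.

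Against satellite cells, Runx1 was 9.54-fold lower in +Dox (log2 fold change -3.25, SE 0.363, adjusted p = 0.000152 by edgeR). Here 19.8% of tested genes were higher in +Dox and 25.1% lower, so a lower gene was common in this comparison. All 15 alternatives kept this call, with log2 fold changes of -3.54 to -2.96. In -Dox cells Runx1 was 2.4-fold lower than in satellite cells (log2 fold change -1.27, SE 0.388, adjusted p = 0.0283 by edgeR), in a comparison where 18.1% of tested genes were higher in -Dox and 20.9% lower. This second difference did not pass the threshold without -Dox replicate 1 (adjusted p = 0.121 by edgeR), -Dox replicate 2 (0.186), satellite-cell replicate 2 (0.0566) or satellite-cell replicate 3 (0.0738), nor when only these conditions were fitted (0.0545), nor with a replicate block (0.0603). Runx1 is itself expressed in blood cells, and the part of the blood markers in the satellite-cell level was not tested. Satellite-cell replicate 1 held the most summed blood markers (30770) and the lowest Runx1 level of the 3 (11080).

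Runx2 had its highest mean in +Dox cells, but none of its differences passed the threshold in the edgeR fit of all replicates. Its normalized counts were 706.8, 704.2 and 530 in +Dox, 216 and 50.77 in -Dox, and 180.4, 269.4 and 303.3 in satellite cells. Every +Dox replicate was above every replicate of the other groups, while -Dox and satellite cells overlapped. Mean levels were 647 ± 101 (SD, n = 3) with Dox and 133.4 ± 117 (SD, n = 2) without, a log2 fold change of -2.28 (SE 0.702) that did not pass the threshold (adjusted p = 0.0864 by edgeR). The -Dox replicates differed 4.25-fold from each other, and the log2 fold change was -3.67 without replicate 1 and -1.57 without replicate 2. DESeq2 gave -2.23 with an adjusted p of 0.00762. Against satellite cells, the log2 fold change of +Dox was 1.37 (SE 0.584, adjusted p = 0.0824 by edgeR) and that of -Dox was -0.91 (SE 0.662, adjusted p = 0.295). The latter was -2.3 without -Dox replicate 1 and -0.16 without -Dox replicate 2. The former passed when only these conditions were fitted (adjusted p = 0.0319 by edgeR) and without -Dox replicate 2 (0.0448).

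Runx3 had no read in any iPax7 replicate. Satellite cells had 97, 1 and 18 raw counts, or 127.7, 1.34 and 23.74 normalized counts, so that replicate 1 held most of them. Set against a floor of 3 counts over a group, the pooled satellite level of 51.2 was at least 64.6-fold higher than +Dox and at least 37.1-fold higher than -Dox. Without satellite-cell replicate 1 these bounds were 15.9 and 9.14. Runx3 passed the filter on low counts only through satellite cells, the group where it was high, so no test of it is given here. Its p-values appear in the closing section for completeness and support nothing. Across satellite-cell replicates 1, 2 and 3, the summed blood markers were 30770, 11610 and 23570, and Runx3 ranked these replicates in the same order. So did the sums of Schwann (2832, 1568 and 2661), myogenic precursor (266200, 239100 and 264100) and differentiated muscle markers (15350, 8871 and 11820). The endothelial, fibroblast-like, mural, and bone and cartilage sums ranked them otherwise. With 3 replicates this is a description, and the part of blood cells in the Runx3 reads was not tested.

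Cbfb was expressed in every replicate. Its normalized counts were 3066, 2567 and 3766 in +Dox, 6114 and 6737 in -Dox, and 3553, 7333 and 5125 in satellite cells. Both -Dox replicates were above all +Dox replicates, and satellite cells overlapped with both. Mean levels were 3133 ± 603 (SD, n = 3) with Dox and 6425 ± 440 (SD, n = 2) after its removal, a log2 fold change of 1.04 (SE 0.332) that missed the threshold (adjusted p = 0.0975 by edgeR). It passed with DESeq2 (adjusted p = 0.0413) and in edgeR when the satellite cells (0.0249) or their replicate 1 (0.044) were left out of the fit. Against satellite cells, the log2 fold change was -0.77 in +Dox (SE 0.303, adjusted p = 0.0636 by edgeR) and 0.27 in -Dox (SE 0.335, adjusted p = 0.553). Neither difference passed the threshold in this fit. The first passed with DESeq2 (log2 fold change -0.82, adjusted p = 0.039) and in edgeR without satellite-cell replicate 1 (-0.99, adjusted p = 0.0159).

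**Figure D1:**
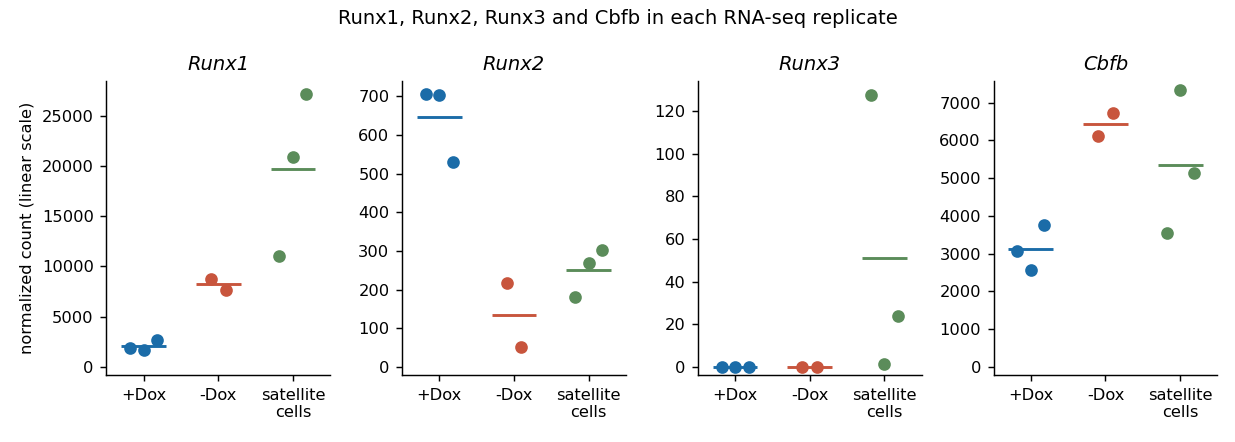
Normalized counts of the 4 members (linear vertical axis, a scale for each gene) in +Dox, -Dox and satellite-cell replicates; points are replicates and lines are group means. Runx1 means step from 2068 to 8202 to 19720, Runx2 is highest in +Dox, and Runx3 lies at 0 in all 5 iPax7 replicates.

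**Figure D2:**
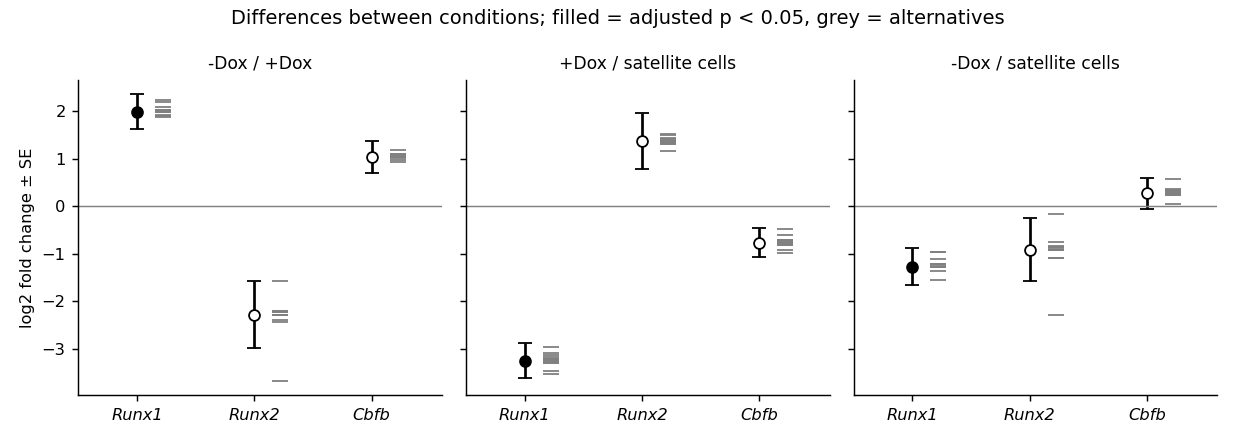
Log2 fold changes with SE for Runx1, Runx2 and Cbfb in the 3 comparisons (the first condition over the second); filled points have an adjusted p under 0.05 and grey marks are the values under the 15 alternatives. Runx1 is filled in all 3 panels and no alternative changes the sign of any member; Runx3 is left out because its iPax7 counts are 0.

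Compared per kilobase of exon, Runx1 was the most abundant Runx gene in every replicate. It made up 74.9, 73.4 and 84.9% of the Runx sum per kilobase in +Dox, 97.9 and 99.4% in -Dox, and 96.9, 98.9 and 98.9% in satellite cells. The remainder in +Dox was Runx2, at 25.1, 26.6 and 15.1%, while in -Dox Runx2 fell within 0.581 to 2.13% and in satellite cells within 0.974 to 1.39%. The +Dox replicates therefore stood apart from both other groups in this share. Runx1 per kilobase exceeded Runx2 per kilobase 2.76 to 5.61-fold in +Dox, 45.8 and 171-fold in -Dox, and 69.6 to 102-fold in satellite cells. Runx3 reached 1.74% in satellite-cell replicate 1 and at most 0.135% in the others.

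The supply of Cbfb relative to the Runx sum also differed between the groups at the RNA level. The Runx sum over Cbfb, both per kilobase of exon, was 0.303, 0.34 and 0.306 in +Dox, 0.545 and 0.427 in -Dox, and 1.2, 1.08 and 2 in satellite cells. The groups did not overlap. Cbfb RNA per kilobase thus exceeded that of the 3 Runx genes together in all iPax7 replicates and was below it in all satellite-cell replicates. With coding exons alone as the length, the means were 0.274 in +Dox against 0.316 with all exons. These ratios are of RNA per kilobase, were given no test, and do not measure protein.

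**Figure D3:**
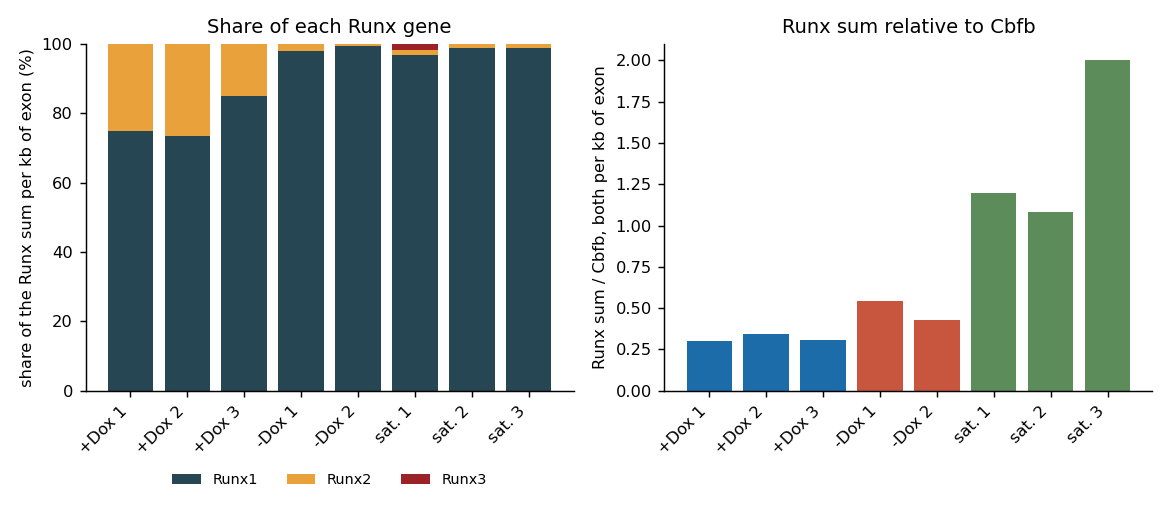
Left, share of Runx1, Runx2 and Runx3 in the Runx sum per kilobase of exon in each replicate (stacked bars, percent); right, the Runx sum over Cbfb, both per kilobase of exon. Runx2 takes 15.1 to 26.6% in +Dox and at most 2.13% elsewhere, and the ratio on the right passes 1 in satellite cells only.

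Start sites were compared between the merged peak lists, 1 list for each condition, so there is no replicate and no test. A peak counted when it came within 500 bases of a start. Values are the fold enrichment of the highest peak over the background of its library. The list for plain C2C12 myoblasts was the shortest, with 39090 peaks over 40.9% of coding gene starts, against 66853 to 145880 peaks and 49.7 to 60.5% in the others. Runx1 P2 and Cbfb had a peak in all 10 lists. At Runx1 P2 the fold was 45.3 in +Dox, 21.7, 41.9 and 33 at 12 h, 24 h and 3 days without Dox, and 29.9 in satellite cells. At Cbfb it was 28.4 in +Dox, 35.2 after 3 days and 16.6 in satellite cells. Runx1 P1 was open in every cultured list, at 8.26 in +Dox, 11.1 after 3 days and 26.3 in the C2C12 Flag control, and had no peak in satellite cells.

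Accessibility at Runx2 and Runx3 was lower. Runx2 P1 had a fold of 5.42 in +Dox and 5.92 after 3 days, and no peak in satellite cells or iPax7 myotubes. Runx2 P2 had 5.25 in +Dox and 4.99 after 3 days, and 5.47 in satellite cells. At 3 days both promoters thus stood near their +Dox values. In between, P1 was at 3.27 at 12 h and 4.81 at 24 h, and P2 at 3.97 and 7.4. In iPax7 myotubes P2 was at 9.07. With 1 list each no error can be given. Runx3 had no peak at P1 or P2 in any of the 4 iPax7 precursor lists or in satellite cells. It did have peaks at both promoters in iPax7 myotubes (4.66 and 3.92), C2C12 myotubes (7.52 and 3.52) and both C2C12 Flag lines (12.1 and 4.99 in the control, 6.06 and 5.63 with Pax7). In plain C2C12 myoblasts only P1 had a peak (5.81).

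Among the Pax7 sites, Runx2 sites 2 and 3 had a lower fold in each iPax7 list without Dox and a higher fold with Pax7 in C2C12. The fold of site 2 was 17.6 in +Dox, 7.48 at 12 h, 7.65 at 24 h and 12.6 at 3 days, with no peak in iPax7 myotubes. In C2C12 cells it was 6.53 with the Flag tag alone and 20.9 with Pax7-Flag, a ratio of 3.21, where the median over 932 Pax7 sites with a peak in both lists was 1.24 and 88.4% had a ratio no higher. The ratio at 12 h to +Dox, 0.426, was near the median of 0.367 over 1548 such sites. Site 3 differed less, at 24.1 at 12 h against 34.3 in +Dox, and at 16.2 with Pax7-Flag against 10.8 in the control. Its ratio at 12 h was 0.7, and 88.1% of sites were no higher. Its C2C12 ratio was 1.5, and 64.6% were no higher. Site 1 went the other way in C2C12, at 21.7 with Pax7-Flag against 24.4 in the control. In iPax7 cells site 1 was at 33.5 in +Dox, 20.8 at 12 h and 40.6 at 24 h. At 24 h the ratios to +Dox were 0.435 at site 2 and 0.815 at site 3, against a median of 0.515. At 3 days they were 0.716 and 0.797, both above the median of 0.55, so these sites lost less than the median site. The 12 h fold was also lower than in +Dox at Runx1 P2 (21.7 against 45.3) and Cbfb (21.3 against 28.4), starts with no Pax7 site. An H3K27Ac peak covered site 2 in +Dox and not in -Dox, while H3K27Ac peaks lay at 73.2% of all Pax7 sites in +Dox and 37.9% in -Dox. In both C2C12 Flag lines an H3K27Ac peak lay at each of the 4 sites.

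The Runx1 site was open only in iPax7 precursor lists. Its fold was 15 in +Dox, 19.2 at 24 h and 16 at 3 days. The 12 h list, the myotube lists, all 4 C2C12 lists and the satellite-cell list held no peak there. In the 12 h list 63.2% of all Pax7 sites had a peak, and in the +Dox list 95.4%. At 24 h the share was 63.4% and at 3 days 68%. The 12 h list was the shortest of the 4 precursor lists, with 97637 peaks against 116140 in +Dox. H3K27Ac and H3K4me1 peaks covered the Runx1 site in +Dox and in -Dox, so it kept both marks in the lists without Dox. Runx2 site 1, at the Supt3h start, was open in all 10 lists, at 33.5 in +Dox, 30.1 after 3 days and 33.2 in satellite cells. Runx2 site 3 had a peak in the 9 lists of cultured cells, at 34.3 in +Dox and 27.4 after 3 days, and none in satellite cells.

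**Figure D4:**
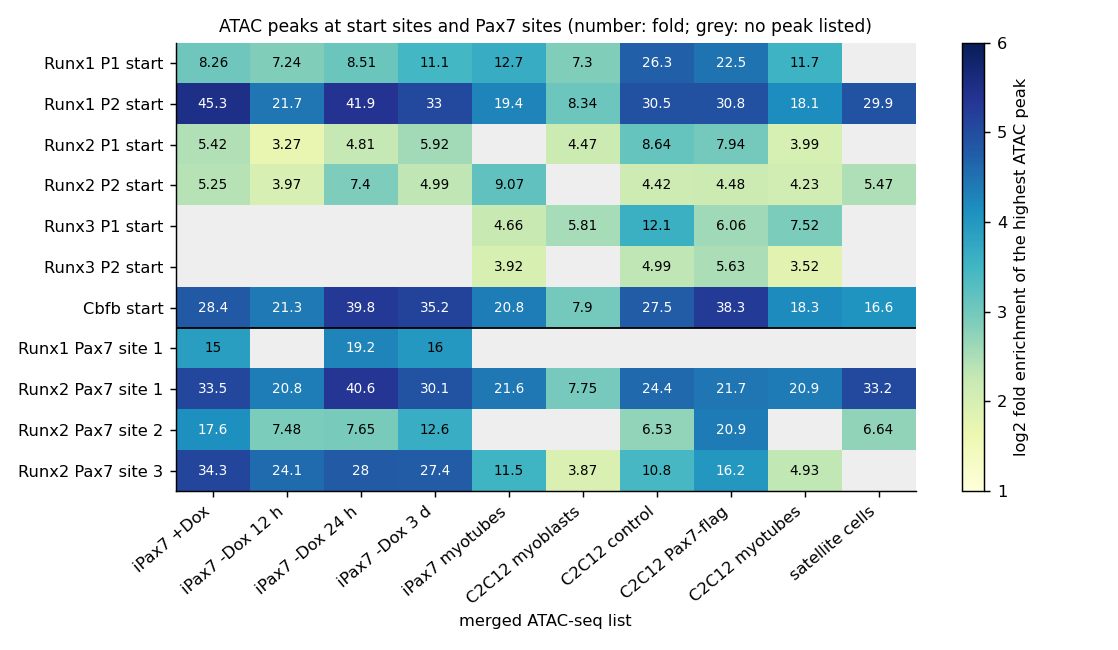
Fold enrichment of the highest ATAC peak (number; color on a log2 scale) at the 7 groups of start sites and the 4 Pax7 sites of the members, in 10 merged lists; grey means that no peak is listed. Runx1 P2, Cbfb and Runx2 site 1 are open throughout, and Runx3 is grey in all 4 iPax7 precursor lists and in satellite cells.

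Acetylation of histone H3 at lysine 27 (H3K27Ac), a mark of active promoters and enhancers, covered less of the Runx2 locus after Dox withdrawal. Over the gene with 50 kb on each side, 94 peaks covered 67312 bases in +Dox and 33 peaks covered 20117 bases in -Dox, a ratio of 0.299. The whole lists covered 73141696 and 49235900 bases, a ratio of 0.673. Among 2235 coding gene windows with at least 20 kb covered in +Dox, the median ratio was 0.695 and 10% were as low as Runx2. Mean peak length there was 716.1 bases in +Dox and 609.6 in -Dox. At Runx1 the covered length was 86930 bases in +Dox and 65706 in -Dox, a ratio of 0.756 that lay near the median. Cbfb had 10225 and 14242 bases.

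Monomethylation at lysine 4 (H3K4me1), a mark of enhancers, covered 87608 bases of the Runx2 window in +Dox and 62657 in -Dox. That ratio of 0.715 compares with a median of 1.2 over 4904 coding gene windows, of which 6.32% were as low. At Runx1 the ratio was 1.32 and at Cbfb 1.35, both close to that median. Trimethylation (H3K4me3), a mark of active starts, covered more of all 4 windows in -Dox. The -Dox list as a whole was longer, with 214172 peaks against 94067 and 2.44 times the covered bases. The ratio was 2.78 at Runx1 and 2.27 at Runx2, against a median of 1.53 over 2210 coding gene windows. Of those windows, 94.3% were no higher than Runx1 and 87.2% no higher than Runx2. H3K27Ac, H3K4me1 and H3K4me3 peaks lay at both Runx1 promoters, both Runx2 promoters and the Cbfb start in +Dox and in -Dox. Runx3 P2 had an H3K4me3 peak and H3K27me3 peaks in both lists, and neither Runx3 promoter had an H3K27Ac peak there. H3K4me1 over the Runx3 window covered 520 bases in +Dox and 20604 in -Dox, a ratio of 39.6. The whole H3K4me1 lists had a ratio of 1.22. The Runx3 window had too few bases in +Dox to be ranked among the coding gene windows, and the cause of its gain was not tested.

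Runx3 carried the repressive mark instead. Trimethylation of lysine 27 (H3K27me3), laid down by Polycomb complexes, covered 29% of its window in +Dox (67 peaks, 45631 bases) and 33.5% in -Dox (73 peaks, 52750 bases). Of 22238 coding gene windows, 3.24% had as high a share in +Dox and 1.86% in -Dox. The other members had at most 2.48% of their windows under this mark in either list. H3K27Ac covered 0.165% of the Runx3 window in +Dox and 0.43% in -Dox. In C2C12 the picture at Runx3 was different: H3K27Ac covered 27.2% of the window in the Flag control and 15.9% with Pax7-Flag, and H3K27me3 covered 0% and 3.17%. No RNA-seq of C2C12 cells was analysed here.

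**Figure D5:**
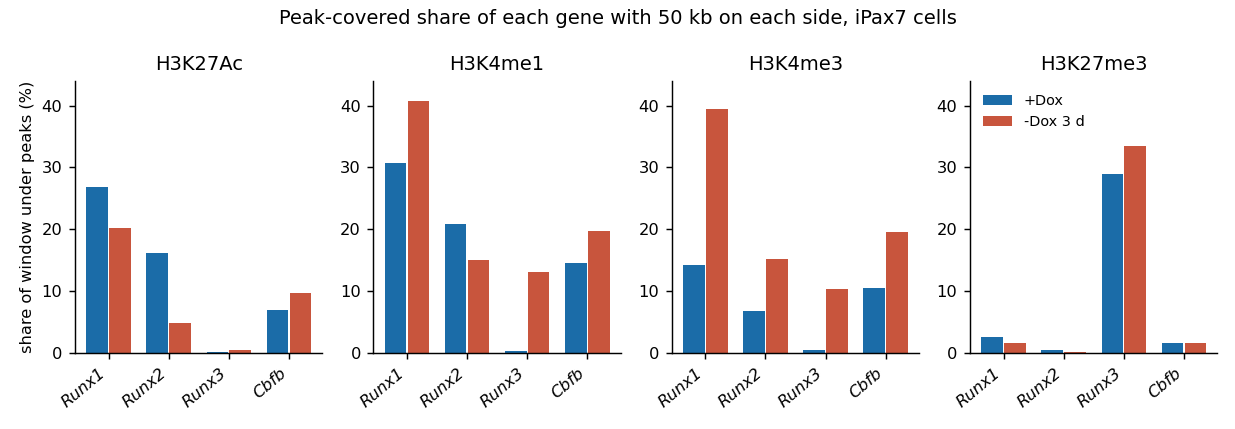
Share of each gene with 50 kb on each side that lies under peaks of 4 histone marks in iPax7 cells (bars, percent, blue +Dox and red -Dox, 1 merged list each). Runx2 goes from 16.1% to 4.8% under H3K27Ac, and Runx3 stands out under H3K27me3 at 29% and 33.5%; the H3K4me3 lists differ in total length.

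Genes that work with Runx proteins were counted from lists chosen with earlier results of these data known. Among 17 corepressors, 1 rose and 2 fell after Dox withdrawal, with a median log2 fold change of -0.27 against -0.0049 over all genes tested, of which 4.66% rose and 3.04% fell. Without -Dox replicate 1 or 2, 1 corepressor was called. Cbfa2t3, an ETO family corepressor, had 36.06, 58.5 and 20.03 normalized counts in +Dox and 1011 and 706.2 in -Dox, and rose by 4.48 on the log2 scale (SE 0.626, adjusted p = 0.00256 by edgeR). The groups did not overlap, and satellite cells lay at 588.4 to 1339. Suv39h1, a histone H3 lysine 9 methyltransferase, fell (log2 fold change -2.3, adjusted p = 0.0143 by edgeR), as did the scaffold Sin3a (-1.74, adjusted p = 0.0372). Against satellite cells, 3 corepressors were higher and 6 lower in +Dox, and 1 was higher and 7 lower in -Dox. Of all tested genes, 19.8% were higher and 25.1% lower in +Dox, and 18.1% were higher and 20.9% lower in -Dox, with medians of -0.17 and -0.23. The -Dox count of 8 corepressors was 2 without -Dox replicate 1, 1 without -Dox replicate 2, 4 without satellite-cell replicate 3, and 5 without +Dox replicate 1 or 2, with only these conditions fitted, or with a replicate block. Runx1t1, the ETO gene that is fused to RUNX1 in leukemia, averaged 52.99 normalized counts in +Dox and 673.7 in satellite cells (log2 fold change -3.67, adjusted p = 0.0238 by edgeR).

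Of 8 coactivators, Wwtr1 (Taz) alone changed after withdrawal, with 1020 normalized counts in +Dox and 3056 in -Dox (log2 fold change 1.58, SE 0.302, adjusted p = 0.0124 by edgeR), where 4.66% of all tested genes rose. The call was lost without +Dox replicate 1, +Dox replicate 2, -Dox replicate 1 or -Dox replicate 2. Against satellite cells, 4 coactivators were lower and 1 higher in +Dox (25.1% and 19.8% of all tested genes), and 3 were lower in -Dox (20.9% of all). Without +Dox replicate 3, 3 were called in +Dox, and without -Dox replicate 1, 1 was called in -Dox. The acetyltransferase Crebbp and the methyltransferase Kmt2a were lower in both iPax7 groups. None of 8 genes whose products modify Runx proteins passed the test after withdrawal by edgeR, where 2 had an unadjusted p under 0.05, and 1 was called by DESeq2, in the fit of only these conditions and without satellite-cell replicate 1. Pim1, a kinase, averaged 31.89 in +Dox and 5636 in satellite cells (log2 fold change -7.47, adjusted p = 8.36e-05 by edgeR), and Cdk6, which binds Runx1, was higher in both iPax7 groups than in satellite cells (log2 fold changes 2.22 and 2.32).

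Among 23 tested genes for factors that share sites with Runx proteins, Smad3 rose after withdrawal (1320 to 4623 normalized counts, log2 fold change 1.81, adjusted p = 0.00527 by edgeR) and no other passed. Against satellite cells, 16 were lower and 2 higher in +Dox, and 14 were lower and 2 higher in -Dox, with median log2 fold changes of -3.67 and -4.09. Of all tested genes, 25.1% were lower and 19.8% higher in +Dox, and 20.9% and 18.1% in -Dox. The -Dox count of 16 partners called was 10 without -Dox replicate 2. Fos, an AP-1 subunit, and Fli1, an ETS factor, were among the lower ones in both iPax7 groups, with log2 fold changes of -9.41 and -7.18 in +Dox. Fli1 averaged 22.68 in +Dox, 0.4595 in -Dox and 3248 in satellite cells, so its -Dox call rests on a level near 0. Lmo2 was also counted, at means of 0.5008 in +Dox, 0.4595 in -Dox and 999.7 in satellite cells. It passed the filter on low counts only through satellite cells, so its calls support nothing. The counts and medians above include such genes and are not read as a trait of Runx partners. Fli1 is itself a blood and endothelial gene, and the markers of those cells were high in satellite cells as given above.

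Of 8 tested bone and cartilage targets, genes known to respond to Runx2, 2 rose and none fell after withdrawal, where 4.66% of all tested genes rose. No target was called without +Dox replicate 1, 2 or 3, without -Dox replicate 1 or with a replicate block, and 1 was called without -Dox replicate 2. Osteopontin (Spp1) had 51510, 58020 and 46340 normalized counts in +Dox and 383400 and 342000 in -Dox (log2 fold change 2.8, SE 0.686, adjusted p = 0.0383 by edgeR). The other was the collagen gene Col1a1, at 1.481 to 3.642 normalized counts in +Dox and 18.38 and 19.38 in -Dox. Sp7, the osteoblast factor downstream of Runx2, had at most 0.919 normalized counts in any replicate. Against satellite cells, 3 of these targets were higher and 3 lower in +Dox (19.8% and 25.1% of all tested genes). Both type I collagen genes, Col1a1 and Col1a2, were lower (log2 fold changes -13.5 and -5.94) and Dmp1, a bone matrix protein, was higher (6.87). Type I collagen is also made by fibroblasts, and the part of the fibroblast-like and mural markers in the satellite-cell level of these genes was not tested. Of 7 tested Runx2 antagonists, none passed after withdrawal by edgeR (1 at an unadjusted p under 0.05) and DESeq2 called 0. Against satellite cells Hey1 and Sox9 were lower in both iPax7 groups, and Zfp521 was higher in +Dox (log2 fold change 1.41, adjusted p = 0.0233 by edgeR). Hey1 passed the filter on low counts only through satellite cells, so its calls support nothing.

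Of 6 tested blood targets, none passed after withdrawal by edgeR (1 at an unadjusted p under 0.05) and DESeq2 called 1, while 4 were lower in +Dox and 3 in -Dox than in satellite cells (25.1% and 20.9% of all tested genes). Csf1r, Csf2 and Mpo had no read in +Dox and averaged 797.7, 400 and 346.9 normalized counts in satellite cells. In -Dox each had at most 0.919 normalized counts in any replicate. Like Runx3, they passed the filter on low counts only through satellite cells, so their calls support nothing. Of 7 tested T cell and sensory neuron targets, 1 rose after withdrawal (4.66% of all tested genes), and 2 were called by DESeq2, in the fit of only these conditions, and without satellite-cell replicate 1 or 2. The gene that rose, Cldn1, a tight junction claudin, had no read in +Dox and averaged 491.2 normalized counts in -Dox and 801.3 in satellite cells. Cldn1 passed the filter on low counts only through the groups where it was high, so its call supports nothing. Itgal, the lymphocyte integrin that Runx3 activates, averaged 0 in +Dox, 0.919 in -Dox and 102.2 in satellite cells, where the blood markers were also high.

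The genes closest to each member over the 8 replicates were found by the root mean square difference of log2(normalized count + 1), each gene centered on its own mean. Closest to Runx1 were Mylk (0.195), Mef2d (0.325) and Arhgap23 (0.347). Mef2d, a muscle transcription factor, averaged 769.7, 2278 and 4776 normalized counts in +Dox, -Dox and satellite cells, in the same order as Runx1. Closest to Runx2 were Cyfip2 (0.394), Ppm1h (0.401) and Pola1 (0.422), the catalytic subunit of DNA polymerase α. Closest to Cbfb were Rbfox2 (0.196), a splicing regulator, Tfg (0.205) and Stc1 (0.218). For Runx3 they were Fbxo41 (0.131), Clec2i (0.263) and Pilrb2 (0.422), each with no read in iPax7 cells. These are the nearest of 14835 genes, so some closeness follows from the number searched.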

How the data were processed

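RNA-seq was analysed for 8 replicates in 3 groups, with ATAC-seq and ChIP-seq peak lists beside it. The authors deposited raw read counts per gene symbol, as HTSeq writes them, and the submitters' processing notes name TopHat2 2.0, HTSeq 0.6 and mm9. In the ATAC-seq lists, the authors deposited for each peak its fold ratio over background with -log10 p and q values from MACS2 2.0.10, called on merged replicates after alignment with Bowtie2 2.2.6 and a Tn5 shift. Histone and Pax7 peaks were called by the authors with Qeseq and are positions without a value. The Pax7 list keeps peaks found in several +Dox replicates and in no -Dox replicate.

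After TMM normalization and filterByExpr, 14836 genes were kept. All 8 replicates entered a single model with a mean for each condition, and contrasts were tested by quasi-likelihood in edgeR 4.0.16 under R 4.3.3, adjusted after Benjamini and Hochberg. A call is an adjusted p under 0.05. The standard error is the log2 fold change over the square root of F. Normalized counts are counts over the effective library size times the geometric mean of these sizes. Lengths are unions of exons. Overlap needs 1 base. The members and lists were chosen with earlier results of these data known. From the lists, at most 4 called genes per list and comparison were eligible to be named, those with the largest change whose higher group averaged 100 normalized counts or more; other genes were named after their values were seen. Scripts were tested on simulated data. Alternatives used RLE, DESeq2 1.42.0, other filters, pairwise fits, a 2-fold minimum, a replicate block and fits without each replicate.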

Additional observations from a re-analysis of the deposited data

How the results depend on the processing

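Runx3 entered the test only through the satellite cells, so its p-values, given here for completeness, support nothing. The counts that follow include 11 alternatives of Runx3 for +Dox and 12 for -Dox against satellite cells. Its sign was not followed in them. Over 11 tested member differences, with those of Runx3, and their alternatives, 135 of 158 values stayed on the same side of the threshold, 13 lost the call, 10 gained it and no sign was reversed. With DESeq2, Runx2 (-2.23) and Cbfb (1.07) passed for Dox withdrawal, Cbfb (-0.82) passed for +Dox against satellite cells, and the Runx3 adjusted p for -Dox against satellite cells was 0.0295. DESeq2 called 2275 genes for withdrawal, against 1142. In fits of only the conditions compared, 2155 genes were called for withdrawal, Cbfb passed (1.04), Runx2 passed for +Dox against satellite cells (1.43), and Runx1 lost its call for -Dox against satellite cells (-1.21). Same-numbered replicates did not deviate together (r from -0.0398 to 0.0272 over 7 pairs), so the replicate block rests on shared numbers only. With the block, 742 genes were called for withdrawal, the Runx3 adjusted p for +Dox against satellite cells (0.0347 without the block) was 0.103, which loses the call, and Runx1 lost its call for -Dox against satellite cells (-0.97).

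Without each replicate in turn, the withdrawal log2 fold change of Runx1 ranged from 1.88 to 2.2 and that of Cbfb from 0.92 to 1.19. For +Dox against satellite cells, Runx2 ranged from 1.17 to 1.52, Cbfb from -0.99 to -0.47 and the Runx3 adjusted p from 0.0234 to 0.0714, with the call lost without any of the +Dox replicates. For -Dox against satellite cells, Runx1 ranged from -1.55 to -0.97 and the Runx3 adjusted p from 0.0466 to 0.23. Genes called ranged from 488 to 1444 for withdrawal and from 3204 to 6131 for -Dox against satellite cells. Fits that leave 1 -Dox replicate assume that it varies like the other groups. Counts from the lists of partners and targets moved by more than 1.5 times in 48 of 405 cases. With coding lengths, the mean Runx sum over Cbfb in +Dox was 0.274. Among ATAC peaks above their list's median fold, 3 groups of start sites had a peak at 12 h and 4 in C2C12 myotubes, and 1 Pax7 site had one in C2C12 myoblasts and 1 in C2C12 myotubes. Without the 50 kb flanks, H3K27me3 covered 66.6% of Runx3 in +Dox and 68.7% in -Dox. The cause of these changes was not tested. Histone lists carry no score and could not be made stricter.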
